A study of Mus musculus with 6 samples.

Results

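A set of 40 monocyte and macrophage genes, matched by symbol, was examined in RNA from sorted double-negative 1 (DN1) thymocytes of the mouse. All 40 were listed in each of the 6 deposited tables, among 24318 gene symbols in all. There were 3 libraries labelled Tle134-deficient and 3 labelled WT. Both groups came from mice of 5 to 8 weeks and were sorted as lineage-, TCRb-, CD8a- and CD25-negative, CD44-positive cells. The name Tle134 is taken to mean Tle1, Tle3 and Tle4, genes of Groucho/Tle corepressors. The sources used here do not name the alleles, any Cre driver or the antibodies of the lineage mixture. Whether each library is a separate animal is not stated, so p-values reflect only the spread among these libraries, some of which may be technical.

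Monocytes arise from granulocyte-monocyte progenitors under the transcription factors PU.1 and C/EBP, and Csf1r signalling keeps monocytes and most macrophages alive. They are recognised by Fc receptors and their signalling adaptors, by lysozyme and lysosomal proteases, and by an NADPH oxidase that makes superoxide. Tissue macrophages, those of the thymus included, add complement C1q and receptors that bind dying cells. Early thymic progenitors keep some myeloid potential until Notch signalling directs them to the T lineage. The gate should remove mature myeloid cells only as far as the lineage mixture names them.

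Expression was measured as FPKM (fragments per kilobase of transcript, relative to the mapped fragments of the library), which allows levels of different genes to be compared per length. The loci with a symbol held an implied 1.42e+06 to 4.34e+06 fragments per library, if a deposited bound lies 2 SD from the value. Of the 240 member values, 26 were listed at 0, and another 22 had a lower bound at 0. The targeted genes did not bear out the labels: Tle1 was at 11.5, 11.3 and 11.1 FPKM in libraries labelled Tle134-deficient, against 1.37, 1.19 and 3.61 FPKM in WT, and Tle3 and Tle4 also had higher means there. Locus-wide FPKM also counts exons that a deletion would leave in place, so this check is partial, and directions below follow the labels. Of the genes behind the gate, Cd44 was at 32.5 to 74.3 FPKM in the deficient-labelled libraries and 27.5 to 53.4 FPKM in WT. Cd8a stayed below 2.5 FPKM throughout. Cd4, whose product is not named among the sort markers, was detected in every library. It was at 7.93 to 29.6 FPKM in the deficient-labelled libraries and 4.03 to 19.5 FPKM in WT. Il2ra, which encodes CD25, was detected despite the CD25-negative sort, at 6.75, 7.36 and 4.22 FPKM in the deficient-labelled libraries and 2.83, 3.59 and 1.69 FPKM in WT, without overlap (limma adjusted p = 0.575). B-cell markers, described below, were also present.

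Promoters of 4 members are shown, chosen among those that hold a PU.1 motif, to stand for the main patterns. The motif is therefore shared by choice. No promoter of Cybb, Ncf1, Cebpb, Apoe, C1qb, Itgam or Fcgr3, members with the same patterns, held it. Ctss and Spp1 were higher in every deficient-labelled library than in every WT library, Ly6c2 had the largest SE of the tested members, and C1qc had a lower mean in the deficient-labelled libraries. The sequences are from RefSeq, build GRCm38.p6, and run 5′ to 3′ from 250 bases before to 50 bases after an annotated start. They lie at chr3:95526536-95526835 (plus strand, Ctss), chr5:104434861-104435160 (plus strand, Spp1), chr15:75111922-75112221 (minus strand, Ly6c2) and chr4:136892865-136893164 (minus strand, C1qc). Capitals mark the PU.1 motif on either strand.
Ctss: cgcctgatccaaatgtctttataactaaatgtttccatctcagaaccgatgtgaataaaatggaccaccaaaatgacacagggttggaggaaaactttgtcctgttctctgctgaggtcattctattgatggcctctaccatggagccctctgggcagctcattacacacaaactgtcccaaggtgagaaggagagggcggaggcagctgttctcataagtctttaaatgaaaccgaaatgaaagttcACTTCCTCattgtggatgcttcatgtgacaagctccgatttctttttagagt
Spp1: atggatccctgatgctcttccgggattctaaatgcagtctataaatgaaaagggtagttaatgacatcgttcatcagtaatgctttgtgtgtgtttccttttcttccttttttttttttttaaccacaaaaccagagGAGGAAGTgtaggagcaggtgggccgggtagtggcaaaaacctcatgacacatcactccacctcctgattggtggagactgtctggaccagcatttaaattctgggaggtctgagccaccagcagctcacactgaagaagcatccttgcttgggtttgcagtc
Ly6c2: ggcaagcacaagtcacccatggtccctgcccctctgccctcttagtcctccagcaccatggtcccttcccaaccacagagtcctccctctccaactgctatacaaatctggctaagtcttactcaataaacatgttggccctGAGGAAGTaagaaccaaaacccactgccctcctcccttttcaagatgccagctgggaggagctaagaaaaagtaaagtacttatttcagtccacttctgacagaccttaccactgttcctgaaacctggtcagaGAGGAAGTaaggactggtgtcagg
C1qc: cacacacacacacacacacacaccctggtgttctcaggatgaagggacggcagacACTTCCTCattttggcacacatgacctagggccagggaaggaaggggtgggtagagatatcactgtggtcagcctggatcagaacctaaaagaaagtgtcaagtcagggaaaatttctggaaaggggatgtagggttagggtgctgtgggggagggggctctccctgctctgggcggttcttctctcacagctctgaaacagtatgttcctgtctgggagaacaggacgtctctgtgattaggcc
The motif searched was GAGGAAGT. It was found in a promoter of 6 of the 29 members that the promoter table holds (20.7%: C1qc, Ctss, Fcgr4, Ly6c1, Ly6c2 and Spp1) and of 997 of 27025 genes in the table (3.69%). A C/EBP motif, TTGCNNAA, was found in a promoter of 5 of the 29 members (17.2%: Cd68, Fcgr3, Lyz1, Spp1 and Trem2) and of 12.2% of genes. No member promoter in the table held both motifs, so they do not overlap. A match describes the letters of the window, not binding.

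No member passed the threshold over all genes. Of the 40 members, 32 reached 1 FPKM in at least 3 libraries and were tested, and 0 were called by limma at an adjusted p under 0.05, where 0.642% of the 11063 genes tested were called higher and 0.108% lower (0.750% in all). Among the 32, 20 differences lay above 0 and 12 below, with a median of 0.22 on the log2(FPKM + 1) scale, against 0.04 over all genes tested. The median was 0.15 without Spp1, which was listed at 0 in WT and passed the filter only through the deficient-labelled libraries. Leaving out deficient-labelled replicate 1, 2 or 3 gave a median of 0.82, 0.93 or 0.01, and leaving out WT replicate 1, 2 or 3 gave 0.28, 0.13 or 0.75. At an unadjusted limma p under 0.05 there were 8 members higher and 3 lower (5.68% and 4.35% of all genes tested). The 8 were Cybb, Ncf1, Ctss, Cebpb, Sirpa, Adgre1, Spp1 and Apoe, and the 3 were the C1q genes. With a symbol-level fit, which takes Csf2rb and Ctsd alone, the median was 0.42.

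**Figure D1:**
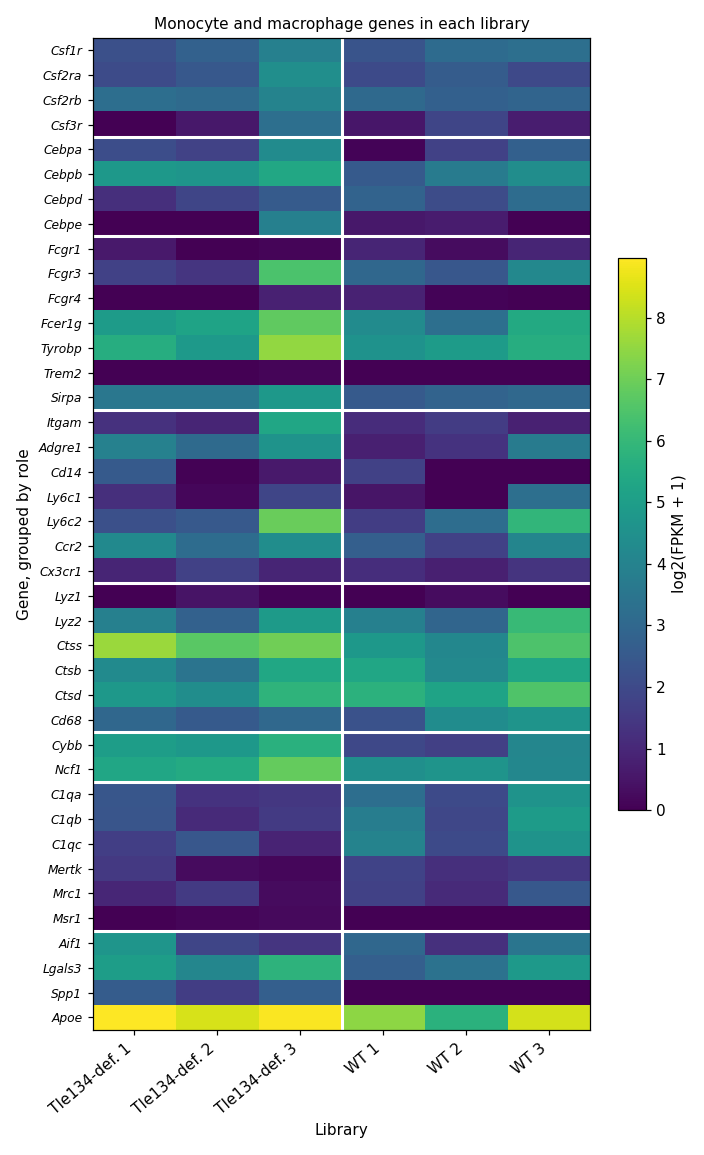
Level of each of the 40 members as log2(FPKM + 1) in the 3 libraries labelled Tle134-deficient (left) and the 3 WT libraries (right), with genes grouped by role. Apoe was the highest member in each of the 6 libraries, and the third deficient-labelled column is the brightest for most receptors and surface markers.

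**Figure D2:**
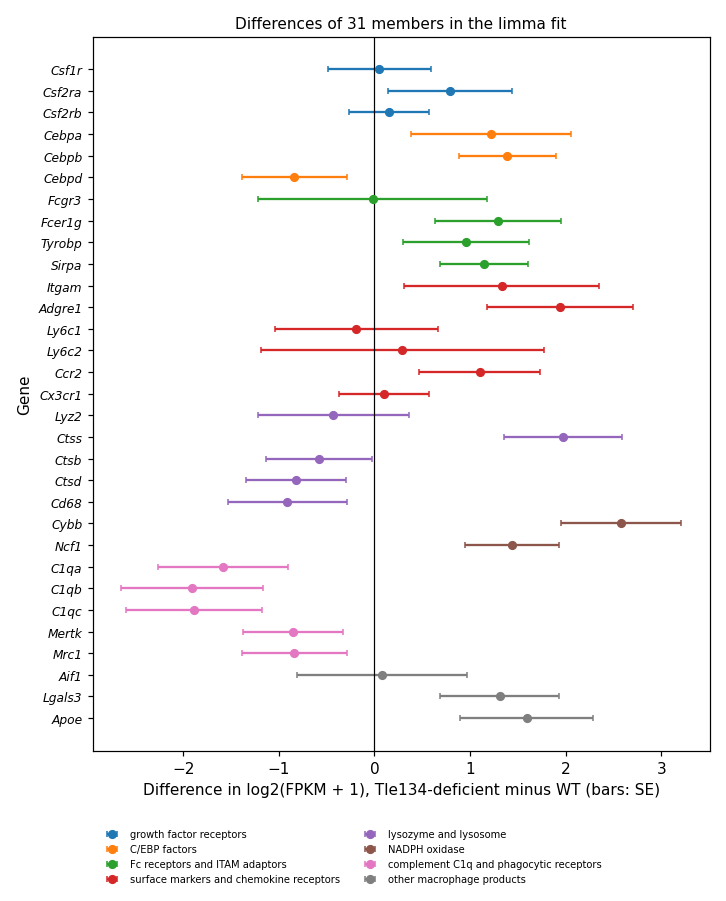
Difference in log2(FPKM + 1), labelled Tle134-deficient minus WT, with its SE from limma, for 31 members tested (Spp1, listed at 0 in WT, is left out, and Csf2rb is plotted with its neighbour Csf2rb2). Cybb lies farthest to the right at 2.58 and C1qb farthest to the left at -1.91.

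Cybb and Ncf1, the members for the NADPH oxidase, did not overlap between the groups. Cybb (chromosome X, mm9 9011865 to 9046450) encodes the catalytic subunit gp91phox. It was at 30.9, 26.7 and 51.2 FPKM in libraries labelled Tle134-deficient, against 2.85, 2.23 and 16.3 FPKM in WT. Every deficient-labelled value thus lay above every WT value, and WT replicate 3 stood above the other WT libraries. The log2 difference was 2.58 ± 0.63 (SE, limma adjusted p = 0.125). Without WT replicate 3 it was 3.35 with an adjusted p of 0.0239, the only member called when any single library was left out (range of adjusted p over the 6 omissions, 0.0239 to 0.38). Ncf1 (chromosome 5, 134695923 to 134705495), the cytosolic organiser subunit p47phox, was at 38.5, 43.4 and 114 FPKM in the deficient-labelled libraries, against 21.4, 24.3 and 16.8 FPKM in WT (log2 difference 1.44 ± 0.49, limma adjusted p = 0.309). Its highest value was in deficient-labelled replicate 3, and its lowest deficient-labelled value was still above all WT values. That lowest value, in replicate 1, had deposited bounds of 34.6 and 42.4 FPKM. They overlapped those of WT replicate 1, 7.47 and 35.4 FPKM, where an implied 9.43 fragments lay behind the value.

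Ctss separated the groups, and the other lysosomal members did not. Ctss (chromosome 3, 95330708 to 95360327) encodes cathepsin S, a protease that trims the class II invariant chain in antigen-presenting cells. It was at 194, 102 and 130 FPKM in the deficient-labelled libraries, against 26.4, 17.0 and 87.9 FPKM in WT (log2 difference 1.97 ± 0.62, limma adjusted p = 0.248). WT replicate 3 came closest to the deficient-labelled range. Ctsd, the aspartic protease cathepsin D, leaned the other way, at 26.8, 19.9 and 55.7 FPKM in the deficient-labelled libraries and 53.8, 35.8 and 89.1 FPKM in WT (-0.82 ± 0.52, limma adjusted p = 0.7). In WT replicate 2 its locus was joined with Ifitm10, and the fit used the pair. Cd68, a glycoprotein of macrophage lysosomes, was at 6.96, 4.82 and 7.13 FPKM in the deficient-labelled libraries, against 3.83, 19.4 and 24.1 FPKM in WT (-0.91 ± 0.62, limma adjusted p = 0.722). Both overlapped between groups. Ctsb, a cysteine cathepsin, overlapped as well, at 9.99 to 39.5 FPKM in the deficient-labelled libraries and 17.7 to 38.9 FPKM in WT.

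The lysozyme pair differed widely in level. Lyz2, the macrophage lysozyme, was at 13.9, 5.93 and 28.9 FPKM in the deficient-labelled libraries and 13.9, 6.61 and 65.8 FPKM in WT (limma adjusted p = 0.95). Lyz1, the Paneth cell lysozyme next to it on chromosome 10, stayed at or below 0.401 FPKM in every library and was not tested. In both groups replicate 3 held the most Lyz2. The 2 genes are near-identical, so reads may be split between them.

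Cebpb and Sirpa also separated the groups. Cebpb (chromosome 2, 167514415 to 167515932), a C/EBP factor of activated and emergency myelopoiesis, was at 26.7, 24.8 and 40.3 FPKM in the deficient-labelled libraries, against 4.87, 12.4 and 20.1 FPKM in WT (log2 difference 1.39 ± 0.51, limma adjusted p = 0.359). Sirpa, the inhibitory receptor for CD47 on phagocytes, was at 10.9, 10.7 and 26.5 FPKM in the deficient-labelled libraries, against 4.83, 6.31 and 7.20 FPKM in WT (1.15 ± 0.46, limma adjusted p = 0.418). For each, deficient-labelled replicate 3 was the highest library and replicates 1 and 2 lay close together. The groups overlapped for the other C/EBP members tested. Cebpa, needed to form granulocyte-monocyte progenitors, was at 3.36, 2.45 and 19.2 FPKM in the deficient-labelled libraries and 0.0705, 2.33 and 5.75 FPKM in WT, and Cebpd had the lower mean in the deficient-labelled libraries, at 1.29, 2.65 and 4.90 FPKM, against 6.28, 3.25 and 8.12 FPKM in WT. Their log2 differences were 1.22 ± 0.84 and -0.84 ± 0.55 (limma adjusted p = 0.728 and 0.702).

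Apoe and Spp1 also had no overlap between the groups. Apoe (chromosome 7, 20281593 to 20284537), the lipid carrier apolipoprotein E, was at 503, 342 and 489 FPKM in the deficient-labelled libraries, against 176, 52.0 and 333 FPKM in WT (log2 difference 1.59 ± 0.70, limma adjusted p = 0.482). Its groups were split by a narrow margin, since WT replicate 3 almost reached deficient-labelled replicate 2. Spp1 (chromosome 5, 104864130 to 104870072), which encodes the secreted phosphoprotein osteopontin, was at 5.10, 2.09 and 5.56 FPKM in the deficient-labelled libraries and listed at 0 in the 3 WT libraries. Its limma adjusted p of 0.0706 was the smallest of any member, and its lowest deposited lower bound in the deficient-labelled libraries was 1.34 FPKM. Spp1 passed the filter of 1 FPKM in at least 3 libraries through the deficient-labelled group alone. Its lack of overlap follows from that, and its p-value is not separate support. No fold is given against a group listed at 0. Lgals3, the macrophage lectin galectin-3, was at 30.6, 16.3 and 54.6 FPKM in the deficient-labelled libraries and 5.60, 9.53 and 28.0 FPKM in WT, with WT replicate 3 inside the deficient-labelled range (1.31 ± 0.62, limma adjusted p = 0.533). Aif1, the calcium-binding protein Iba1, spread from 1.63 to 24.4 FPKM within the deficient-labelled libraries and from 1.34 to 10.2 FPKM in WT.

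In all, 7 of the 32 tested members had no overlap on the higher side (Apoe, Cebpb, Ctss, Cybb, Ncf1, Sirpa and Spp1, with Csf2rb counted together with its neighbour Csf2rb2) and 0 on the lower side, where 8.67% and 6.56% of all genes tested did. Of the 7, Spp1 was tested only because the deficient-labelled libraries passed the filter, so its place here was fixed by it. The same 7 had no overlap when deficient-labelled replicate 1, deficient-labelled replicate 3 or WT replicate 1 was left out, where 13%, 13.3% and 10.8% of all genes tested had none. Without deficient-labelled replicate 2, WT replicate 2 or WT replicate 3 there were 11, 8 and 12 (13.4%, 13.7% and 18.3% of all genes tested). B-cell markers were also higher in the deficient-labelled group. All 10 of the B-cell list separated the groups and 8 were called, where 0.642% of all genes tested were called higher. These markers were chosen with earlier results of these data known. Their summed level was 978, 812 and 605 FPKM in the deficient-labelled libraries and 75.4, 76.4 and 129 FPKM in WT. Within the deficient-labelled group this sum was lowest in replicate 3, where Cybb, Ncf1, Sirpa, Cebpb and Spp1 were highest. It was highest in replicate 1, where Ctss and Apoe were highest. B cells are also known to express Cybb, Ncf1 and Ctss. The part of B-cell RNA in the level of these members was not tested. In bulk RNA, fewer cells of a type and less RNA per cell cannot be told apart.

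**Figure D3:**
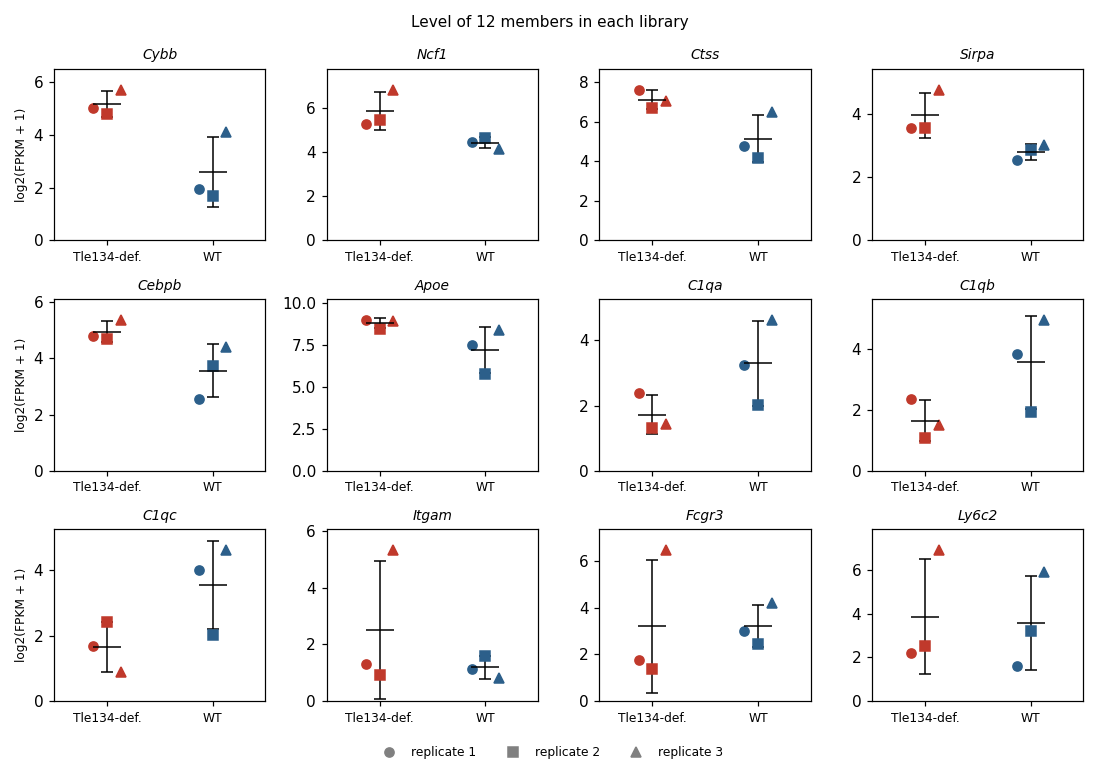
Level of 12 members as log2(FPKM + 1) in each library, labelled Tle134-deficient (red) left of WT (blue), with the group mean and SD on that scale as black marks. Cybb, Ncf1, Ctss, Sirpa, Cebpb and Apoe have no overlap between groups, the C1q genes are lower on average with overlap, and Itgam, Fcgr3 and Ly6c2 are high in deficient-labelled replicate 3 alone within that group.

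The C1q genes showed the opposite direction. C1qb, C1qc and C1qa are neighbours on chromosome 4 (136436061 to 136442092, 136445717 to 136448829 and 136451831 to 136454759) and encode the 3 chains of the recognition molecule of the classical complement pathway, which tissue macrophages secrete. C1qa was at 4.27, 1.46 and 1.73 FPKM in the deficient-labelled libraries, against 8.53, 3.02 and 23.7 FPKM in WT. C1qb was at 4.13, 1.08 and 1.85 FPKM in the deficient-labelled libraries, against 13, 2.80 and 29.6 FPKM in WT. C1qc was at 2.21, 4.36 and 0.850 FPKM in the deficient-labelled libraries, against 15.2, 3.05 and 23.5 FPKM in WT. For all 3, WT replicates 1 and 3 lay above every deficient-labelled library, and WT replicate 2 lay within the deficient-labelled range. The log2 differences were -1.58 ± 0.68, -1.91 ± 0.74 and -1.89 ± 0.71 (limma adjusted p = 0.468, 0.397 and 0.374). Without WT replicate 2 the 3 genes separated the groups on the lower side, together with Cebpd and Mrc1 (5 of 32 members, against 11.6% of all genes tested). Without WT replicate 3, 0 members did, against 8.92% of all genes tested.

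Receptors that phagocytes use to bind dying cells or glycans were low in both groups. Mertk, a receptor kinase for apoptotic cells, was at 1.83, 0.211 and 0.106 FPKM in the deficient-labelled libraries and 1.29 to 2.51 FPKM in WT. Mrc1, the mannose receptor, was at 0.955, 1.88 and 0.194 FPKM in the deficient-labelled libraries and 1.11 to 4.48 FPKM in WT. Their limma adjusted p-values were 0.68 and 0.708. Msr1, a scavenger receptor, did not exceed 0.170 FPKM in the deficient-labelled libraries and was listed at 0 in WT. Over the 6 members of this role, the summed level was 13.4, 9.09 and 4.9 FPKM in the deficient-labelled libraries and 41.6, 11.3 and 83 FPKM in WT, so deficient-labelled replicate 3, the richest library in other members, was the poorest in these.

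Fcgr3, Itgam and Ly6c2 spread widely within the deficient-labelled group. Fcgr3, a low-affinity IgG receptor of myeloid and NK cells, was at 2.34, 1.60 and 86.5 FPKM in the deficient-labelled libraries and 7.07, 4.43 and 17.3 FPKM in WT. Itgam (chromosome 7, 135206154 to 135262005), the CD11b integrin chain, was at 1.46, 0.888 and 39.2 FPKM in the deficient-labelled libraries and 1.18, 2.05 and 0.771 FPKM in WT. In replicate 3 the 2 genes stood at 43.9 and 33.5 times the mean of the other deficient-labelled libraries, and the deposited bounds for Itgam there, 37.3 and 41.2 FPKM, lie far above those of any other library. Ly6c2, a surface marker of classical monocytes, was at 3.53, 4.71 and 120 FPKM in the deficient-labelled libraries and 2.07, 8.23 and 59.2 FPKM in WT, high in replicate 3 of both groups. Their limma adjusted p-values were 0.999, 0.761 and 0.986. The log2 difference of Fcgr3 lay between -1.66 and 0.88 when single libraries were left out, that of Itgam between -0.08 and 2.13, and that of Ly6c2 between -1.23 and 1.46. Fcgr3 and Ly6c2 are described at this length because of values already seen.

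The adaptors were expressed in all libraries. Tyrobp, the ITAM adaptor DAP12, was at 47.3, 27.6 and 182 FPKM in the deficient-labelled libraries and 22.6, 29.8 and 46.8 FPKM in WT. Fcer1g, the common Fc receptor gamma chain, was at 29.2, 36.3 and 109 FPKM in the deficient-labelled libraries and 19.2, 8.61 and 42.9 FPKM in WT. Both overlapped between groups (limma adjusted p = 0.73 and 0.58), with deficient-labelled replicate 3 the highest. NK and innate lymphoid cells, mast cells and granulocytes use these adaptors too. Adgre1, the F4/80 antigen of macrophages and eosinophils, was at 14.3, 7.54 and 23.4 FPKM in the deficient-labelled libraries, against 0.732, 1.49 and 12.2 FPKM in WT, where replicate 3 lay within the deficient-labelled range (log2 difference 1.94 ± 0.76, limma adjusted p = 0.399). Ccr2, the receptor for the monocyte chemokine Ccl2 and also a gene of innate lymphocytes, was at 18.2, 7.92 and 20.2 FPKM in the deficient-labelled libraries and 5.51, 2.37 and 16.0 FPKM in WT (1.10 ± 0.63, limma adjusted p = 0.645). Cx3cr1, the fractalkine receptor, ranged from 0.919 to 2.36 FPKM in the deficient-labelled libraries and 0.735 to 1.57 FPKM in WT. Ly6c1, the near-identical neighbour of Ly6c2, ranged from 0.111 to 2.67 FPKM in the deficient-labelled libraries and from a listed 0 to 8.82 FPKM in WT, and reads may be split between the pair.

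Growth factor receptors were present at low levels, with the highest values in deficient-labelled replicate 3. Csf1r (chromosome 18, 61265226 to 61290793), the receptor for M-CSF, was at 3.55, 5.95 and 14.1 FPKM in the deficient-labelled libraries and 4.04, 7.81 and 8.76 FPKM in WT (log2 difference 0.05 ± 0.54, limma adjusted p = 0.996; -0.03 after rescaling the libraries). Csf2ra, the alpha chain of the GM-CSF receptor, was at 3.12, 4.57 and 20.8 FPKM in the deficient-labelled libraries and 3.04, 5.15 and 2.91 FPKM in WT (0.79 ± 0.65, limma adjusted p = 0.783). Neither separated the groups, and replicate 3 was the highest library for both. Csf2rb, the beta chain shared by the receptors for GM-CSF, IL-3 and IL-5, was at 8.46, 7.53 and 15.1 FPKM in the deficient-labelled libraries and 7.35, 5.81 and 6.49 FPKM in WT. Taken alone it had no overlap (0.54 ± 0.42, limma adjusted p = 0.766). Added to its near-identical neighbour Csf2rb2, with which reads may be shared, it overlapped (0.15 ± 0.42, limma adjusted p = 0.972). Csf3r, the G-CSF receptor of neutrophils, was listed at 0 and at 0.476 and 8.82 FPKM in the deficient-labelled libraries and at 0.444, 2.71 and 0.659 FPKM in WT, and was not tested.

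The 8 members left untested were those that reached 1 FPKM in fewer than 3 libraries. Cebpe, a C/EBP factor of late granulocyte and eosinophil development, was listed at 0 in deficient-labelled replicates 1 and 2, at 14.1 FPKM in replicate 3, and at 0.504, 0.624 and 0 FPKM in WT. Cd14, the lipopolysaccharide co-receptor of monocytes, was at 4.81, 0.0484 and 0.540 FPKM in the deficient-labelled libraries and at 2.33, 0 and 0 FPKM in WT. Fcgr1 and Fcgr4, IgG receptors of monocytes and macrophages, Trem2, a lipid-sensing receptor that signals through Tyrobp, and Lyz1 and Msr1 stayed below 1 FPKM in every library. Of the genes that define monocytes and macrophages, Lyz2 was at 5.93 FPKM or more in every library. Csf1r was at 3.55 FPKM or more, but its deposited lower bound was 0 in replicate 1 of each group, and Adgre1 was under 1 FPKM in WT replicate 1.

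Deficient-labelled replicate 3 held the highest value of 22 of the 40 members, and of 18 of the 32 tested (56.2%), where 20.3% of all genes tested were highest there. The 22 include Trem2 and Msr1, which stayed below 1 FPKM in every library. This library also held the most implied fragments, 4.34e+06. WT replicate 3 held the highest value of 9 of the 32 tested, where 28.6% of all genes did, and WT replicate 2 of 0. The mean log2(FPKM + 1) of the 32 tested members was 3.41, 3.0 and 4.25 in the deficient-labelled libraries and 2.86, 2.63 and 4.0 in WT, so replicate 3 was the highest in each group. Over all genes tested that mean was 3.20, 3.16 and 3.42 in the deficient-labelled libraries and 3.03, 3.13 and 3.46 in WT. The SD of log2(FPKM + 1) was larger in the deficient-labelled group for 17 of the 32 members (53.1%), against 47.9% of all genes tested. The median SD of the members was 0.75 in the deficient-labelled libraries and 1.01 in WT, against 0.55 and 0.57 over all genes, so the members varied more than other genes in both groups.

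**Figure D4:**
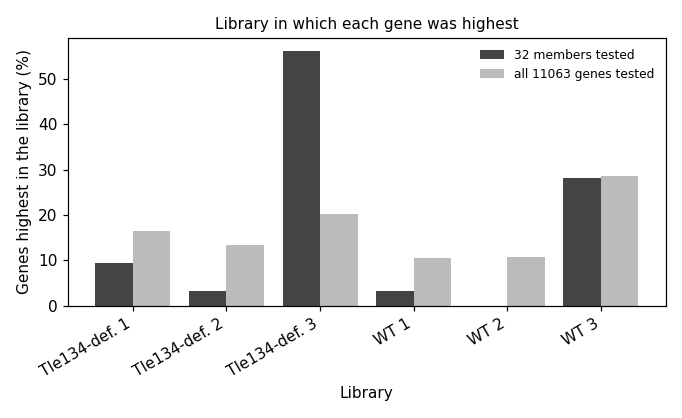
Share of genes whose highest FPKM of the 6 libraries was in the library named on the axis, for the 32 members tested (dark) and all 11063 genes tested (light). Deficient-labelled replicate 3 holds 56.2% of the members and 20.3% of all genes.

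Most granulocyte genes of the marker list were also highest in deficient-labelled replicate 3. The 16 neutrophil and eosinophil markers summed to 121, 179 and 3342 FPKM in the deficient-labelled libraries and 161, 327 and 622 FPKM in WT, with 7, 9 and 15 markers at 1 FPKM or more in the deficient-labelled libraries and 9, 8 and 10 in WT. S100a9, an abundant neutrophil protein, was listed at 0 in deficient-labelled replicates 1 and 2 and was at 333 FPKM in replicate 3, against 0, 0 and 27.0 FPKM in WT. Prg2, the eosinophil major basic protein, was at 0, 25.4 and 1242 FPKM in the deficient-labelled libraries and 8.28 to 25.5 FPKM in WT. Not all markers peaked in deficient-labelled replicate 3. S100a8 and Cxcr2 were highest in WT replicate 3, at 30.8 and 2.35 FPKM. Camp was highest in WT replicate 2, at 5.85 FPKM, and Mmp9 in deficient-labelled replicate 1, at 34.0 FPKM. The rest of the list was highest in deficient-labelled replicate 3. The mast and basophil list summed to 11.4, 32.5 and 302 FPKM in the deficient-labelled libraries and 121, 91.3 and 216 FPKM in WT. Of that list, Prss34 (139 FPKM), Ms4a2, Gata2 and Hdc were highest in deficient-labelled replicate 3, and the other genes in WT replicate 3. Cpa3 was at 0.992, 0.622 and 21.5 FPKM in the deficient-labelled libraries, against 54.4, 35.0 and 110 FPKM in WT. Tpsb2 was listed at 0 in the deficient-labelled libraries, against 5.82, 3.66 and 17.5 FPKM in WT. The T-lineage list had its lowest sum in deficient-labelled replicate 3, at 195 FPKM against 294 and 689 FPKM in the other deficient-labelled libraries and 412 to 1120 FPKM in WT. Not every gene of it was lowest there. Cd3g was at 61.3 FPKM in that library, against 25.3 FPKM in deficient-labelled replicate 2, and Cd3d was at 15.2 FPKM, against 15.0 FPKM in WT replicate 2. The NK list ranged from 40.6 to 183 FPKM in the deficient-labelled libraries and from 38.9 to 150 FPKM in WT. Of the 4 genes tested in it, Nkg7 and Gzma overlapped between groups, and 2 were lower without overlap (6.56% of all genes tested were). Klrd1 was at 0, 1.52 and 0.659 FPKM in the deficient-labelled libraries, against 5.57, 6.61 and 42.4 FPKM in WT. Eomes was at 0.0591, 0.142 and 0 FPKM, against 4.76, 1.09 and 2.78 FPKM in WT. The dendritic cell list outside MHC II ranged from 60.4 to 88.4 FPKM in the deficient-labelled libraries and from 93.3 to 116 FPKM in WT. Ccr9 was the largest part of the WT sums. It was at 24.9, 25.3 and 7.73 FPKM in the deficient-labelled libraries, against 79.1, 59.6 and 55.9 FPKM in WT. Of the 8 genes tested in this list, 5 differences lay above 0 and 3 below, with a median of 0.20, so the sums do not describe the list as a whole. The erythroid and platelet list summed to at most 46.3 FPKM, in deficient-labelled replicate 3. The part of these cells in the level of Itgam, Fcgr3, Ly6c2 and the other members was not tested.

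**Figure D5:**
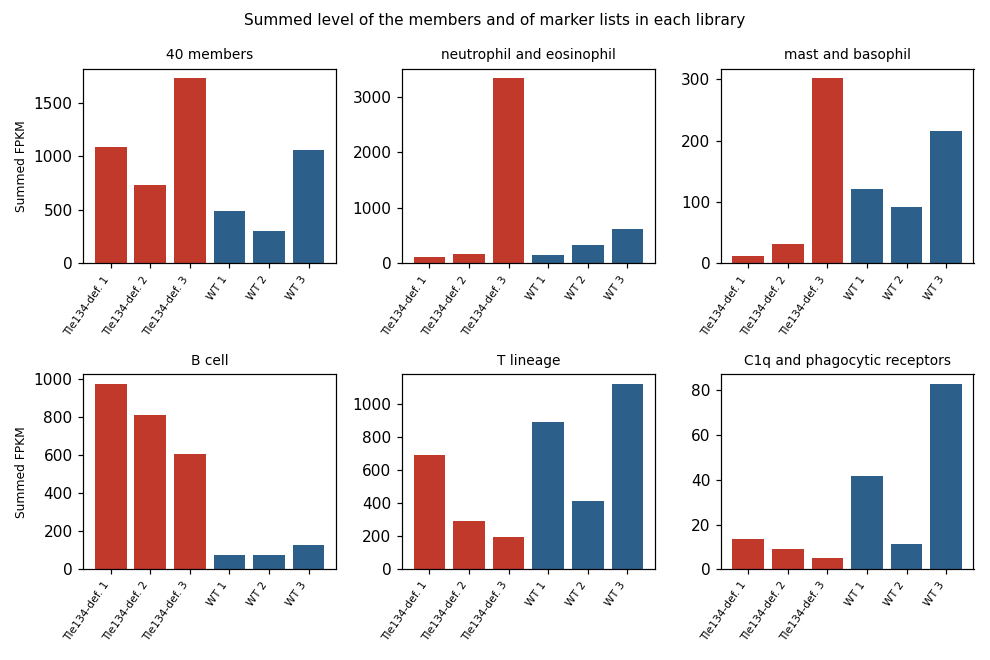
Summed FPKM of the 40 members, of 4 marker lists and of the C1q and phagocytic receptor role in each library, labelled Tle134-deficient in red left of WT in blue. Deficient-labelled replicate 3 reaches 3342 FPKM in the neutrophil and eosinophil list, and its C1q and phagocytic receptor sum of 4.9 FPKM is the lowest of the 6 libraries.

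Among 88 other genes of monocytes and macrophages, 85 were listed, 70 were tested, 3 rose, 1 fell and 66 did not pass (limma, adjusted p under 0.05). Over all genes tested, 0.642% were called higher and 0.108% lower. The median log2 difference of the 70 was 0.41, against 0.04 over all genes tested. Syk, a tyrosine kinase downstream of ITAM adaptors and of the B-cell receptor, rose to 134, 125 and 89.2 FPKM in the deficient-labelled libraries, against 11, 27.2 and 16.2 FPKM in WT (2.68 ± 0.46, limma adjusted p = 0.0353). The groups lay well apart. Plbd1, a phospholipase B-like protein, rose to 24.2, 21.5 and 37.2 FPKM in the deficient-labelled libraries, against 1.85, 4.11 and 6.10 FPKM in WT (2.57 ± 0.47, limma adjusted p = 0.0431). Lpl, lipoprotein lipase, fell to 2.54, 1.58 and 0.571 FPKM in the deficient-labelled libraries, against 12.9, 11.8 and 14.9 FPKM in WT (-2.54 ± 0.48, limma adjusted p = 0.0499).

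The calls of Syk, Plbd1 and Lpl were each lost without deficient-labelled replicate 1, 2 or 3 and without WT replicate 1 or 2. Syk and Lpl were also lost without WT replicate 3. With all libraries kept, Syk and Plbd1 were lost without a filter, without the trend and robust steps, and with the replicate number as a block. Plbd1 was also lost with a pseudocount of 0.1. Syk and Plbd1 were thus each lost in 9 of the 12 settings tried, and Lpl in all 12. The highest limma adjusted p over the settings was 0.173 for Syk, 0.149 for Plbd1 and 0.186 for Lpl. Each direction was kept in all 12 settings, with log2 differences of 2.39 to 3.0 for Syk, 2.21 to 2.87 for Plbd1 and -3.20 to -2.23 for Lpl.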

How the data were processed

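RNA was sequenced from 6 libraries, 3 per group. The tools were Trimmomatic 0.38, TopHat2 2.1.1 and featureCounts 2.0.1 and the build was mm9, per the submitters' processing notes, which state no roles. Per the file headers, the authors deposited FPKM with its lower and upper bounds, in the layout of Cufflinks. Its version, annotation and strand setting stay unknown, as not given in the sources used here. FPKM is relative to its own library, and counts were not used, so depth is implied from the bounds.

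Symbols listed on 1 locus in at least 1 library were summed (24318 symbols, 23401 units). Member values are sums over the rows listing the symbol. Units with 1 FPKM in at least 3 libraries were tested with limma 3.58.1 in R 4.3.3 on log2(FPKM + 1), with a single group term, trend and robust empirical Bayes, and Benjamini-Hochberg adjustment (threshold 0.05). This scale understates changes of low genes. Tables were joined with Python 3.11.15 and pandas 2.3.3.

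Of the called genes in the wider list, 1 is not reported here by name. Members and lists were chosen with earlier results of these data known. Values in every library are given for members past the threshold or without overlap and for the 3 smallest p-values in each role, and other genes are named where past the threshold or among the 3 smallest p-values. Alternatives were another pseudocount, no filter, median-ratio scaling, symbol-level values, a plainer limma fit, a replicate block and leaving out each library. Counts without overlap were repeated without each library and after scaling, chosen after seeing the data.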

Additional observations from a re-analysis of the deposited data

How the results depend on the processing

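Of the 11063 genes tested, 83 were called, against 53 with a pseudocount of 0.1, 55 without the trend and robust steps, and 0 of 18943 without a filter on low values (limma, 1181 at an unadjusted p under 0.05). Leaving out each library gave 0 to 58 called genes (877 to 1179 at an unadjusted p under 0.05). Members called higher numbered 0 in the settings that kept all libraries and 0 to 1 in those that left out a library. Members without overlap numbered 7 to 12 on the higher side and 0 to 5 on the lower side when single libraries were left out, where 10.8% to 18.3% and 8.92% to 14.8% of all genes tested had none. The replicate number as a block left 2 genes called and 0 members. Same-numbered libraries deviated together with correlations of 0.084, 0.182 and 0.174 for numbers 1 to 3, so the numbers are not taken as pairs. Each library correlated best with its own number, a hint from the data and not from the design.

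With all libraries, 2 of 192 member differences changed sign, Csf1r after rescaling (-0.03) and Ly6c1 with a pseudocount of 0.1 (0.27). Leaving out single libraries changed the sign of 9 members: Csf1r (-0.43 to 0.44), Csf2rb (-0.11 to 0.36), Fcgr3 (-1.66 to 0.88), Itgam (-0.08 to 2.13), Ly6c1 (-0.83 to 0.82), Ly6c2 (-1.23 to 1.46), Cx3cr1 (-0.17 to 0.24), Lyz2 (-1.11 to 0.45) and Aif1 (-0.93 to 0.70). The cause was not tested. Depth limits the low members: a median of 63 implied fragments lay behind a member value above 0.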

Other observations

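In the wider monocyte and macrophage list, 3 genes picked after their values were seen stood out in single libraries. Ccl6, a myeloid chemokine, was at 2.35, 2.44 and 295 FPKM in the deficient-labelled libraries and 4.64, 5.38 and 14.0 FPKM in WT. Ifitm6 was listed at 0 in all libraries except deficient-labelled replicate 3, at 47.4 FPKM. Lyn, a Src-family kinase of B and myeloid cells, was at 266, 52.6 and 62.3 FPKM in the deficient-labelled libraries and 7.27, 14.0 and 132 FPKM in WT, so WT replicate 3 exceeded deficient-labelled replicates 2 and 3.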
